A study of Mus musculus with 2 samples.

Results

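The 10 genes described here are Trp53, which encodes the transcription factor p53, its regulators Mdm2 and Mdm4, and 7 further p53 target genes, Cdkn1a, Ccng1, Bbc3, Bax, Phlda3, Plk2 and Trp53inp1. They were chosen by symbol, and all 10 were found among the 31053 genes of the 2 deposited single-cell libraries. Each library holds cells of mouse hearts at E12.5, dissociated with TrypLE and captured with a 10X Chromium kit. The control library carries the genotype Tbx18-Cre; YFP/+, and the mutant library carries Tbx18-Cre; Prmt1 fl/fl;YFP/+, so that the Cre driver and the YFP reporter allele are present in both and the floxed Prmt1 alleles, for an arginine methyltransferase, in the mutant only. Tbx18 marks the epicardium, the outer layer of the heart, and Cre activity in cells of other origin is not given in the sources used here. How many embryos went into each library, and whether cells were sorted on YFP, is not given either. There was 1 library per genotype, so genotype and library cannot be told apart, no test between genotypes could be made, and every interval below is a 95% interval for counting error only.

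p53 is made continuously in most embryonic cells and is kept low by Mdm2, a ubiquitin ligase that marks it for degradation, and by Mdm4, which binds Mdm2 and covers the activation domain of p53. When p53 is stabilised, by DNA damage or other stress, it switches on genes that stop the cell cycle, start cell death or feed back on p53, and Mdm2 is one of them. Most of this control acts on the protein, so transcript levels of Trp53 do not measure p53 activity, and its target genes are the usual transcript readout. The study deleted Prmt1 in the Tbx18 lineage, and splicing of Mdm4 has been linked to Prmt1. The counts here come from the 3′ ends of transcripts and sum all isoforms, so Mdm4 splicing was not measured.

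Binding of p53 to its targets goes through a 10-base consensus, usually found as an adjacent pair. In RefSeq promoter windows (mouse build GRCm38.p6, 250 bases before to 50 bases after each annotated start), 9 of the 10 genes had an entry, with 13 windows among them. The consensus (3 purines, C, A or T at 2 positions, G, 3 pyrimidines), which reads the same on both strands, was matched in the windows of 5 genes, Cdkn1a, Mdm2, Ccng1, Bax and Trp53, or 5 of 13 windows, against 8.36% of all 32851 windows. Of 27 other p53 targets in the table, 10 had a match, in 11 of their 38 windows. A pair of matches separated by at most 13 bases occurred in 0.0731% of all windows, and Cdkn1a was the member with one. The stretches with a match that lie outside annotated exons are shown 5′ to 3′ on the strand of the gene, because 3 of these 4 genes make up the single-cell sum used below and Bax has the most UMIs of the 10, with each match in capitals.
Cdkn1a, chr17:29090876-29090967, plus strand: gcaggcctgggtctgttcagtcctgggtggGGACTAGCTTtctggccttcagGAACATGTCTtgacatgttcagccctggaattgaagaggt
Mdm2, chr10:117710905-117710974, minus strand: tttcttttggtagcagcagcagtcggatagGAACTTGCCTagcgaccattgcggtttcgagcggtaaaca
Ccng1, chr11:40755432-40755501, minus strand: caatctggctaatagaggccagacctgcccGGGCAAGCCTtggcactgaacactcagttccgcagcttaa
Bax, chr7:45467060-45467129, minus strand: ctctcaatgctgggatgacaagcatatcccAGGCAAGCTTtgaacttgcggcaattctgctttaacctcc
The matches begin 73 and 51 bases before the start of Cdkn1a, and 186, 185 and 201 bases before those of Mdm2, Ccng1 and Bax. A match is a description of the letters and not a measured binding site. The windows of Mdm4, Bbc3, Phlda3 and Plk2 and a downstream start of Cdkn1a held none, which says only that the consensus is not in these windows.

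Cells were assigned to 7 classes by marker genes, and levels are given as CPM, the unique molecular identifiers (UMIs, each standing for 1 captured transcript) of a gene per 1000000 UMIs summed over the cells of a class. The control and mutant libraries gave 2007 and 1570 cardiomyocytes, 276 and 472 epicardial cells, 484 and 919 Tcf21-positive mesenchymal cells, and 281 and 378 cushion-type mesenchymal cells. They gave 172 and 217 endothelial cells, 68 and 71 macrophages, and 1830 and 2112 red cells. Cardiomyocytes were far deeper, with medians of 10801 and 11890 UMIs per cell, than the other nucleated classes, whose medians ran from 1653 to 4194, and each of those 5 classes was deeper in the mutant library. Genes that set a gate are high in it, and low in gates that bar them, by that rule, so they check nothing about the names. Among genes outside the threshold sums, the epicardial genes Wt1 and Tbx18, which could count only toward a minimum of 2 detected markers, stood at 121 and 88.7 CPM and at 111 and 84.7 CPM in the epicardial gate, and at 19.0 or less in every other gate. Egfl7 and Ramp2, left out of the endothelial sum, were highest in the endothelial gate, with Egfl7 at 918 and 1018 CPM there and at most 105 elsewhere. Epicardial cells also carried Myl7, a myosin light chain, at 4994 and 5630 CPM, beside 50.7 and 64.2 for the cardiomyocyte troponin Tnnt2. Beside Tcf21, which sets its gate, Pdgfra was highest in Tcf21 mesenchyme, while Dcn and the collagens were highest in epicardial cells and Lum in cushion cells. Gated cells shared 11 barcodes between the libraries, of 5118 and 5739. Prmt1 itself was read at 476 control and 399 mutant CPM in the epicardial gate, and since the deleted part and the counted 3′ end need not overlap, this checks nothing about the deletion.

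Summed over cells of all depths, Trp53 (chr11:69580359-69591873 in build GRCm38, as all gene positions here) was most abundant in endothelial cells, at 69.3 control and 71.8 mutant CPM, and least in red cells, at 1.67 and 2.57. Cushion mesenchyme stood at 49.1 and 53.7, epicardial cells at 49.6 and 36.2, Tcf21 mesenchyme at 31.2 and 49.8, and macrophages at 45.5 and 33.2. Cardiomyocytes held the lowest level among nucleated classes, 21.0 (19.5 to 22.7) in the control and 21.9 (20.2 to 23.7) in the mutant library. Neighbours in this order from endothelial cells to macrophages had overlapping intervals in both libraries. The first place of endothelial cells did not hold at all depths. Among cells of at least 8000 UMIs they stood at 90.9 control and 110 mutant CPM, below cushion mesenchyme at 106 and 133. Among shallower cells they stood at 43.8 and 33.7, and cushion mesenchyme at 37.9 and 39.1. The cardiomyocyte interval overlapped only that of Tcf21 mesenchyme in the control and only that of macrophages in the mutant library, and red cells lay below it in both. A Trp53 UMI was seen in 18.6% and 17.5% of endothelial cells and 22.8% and 24.5% of the deeper cardiomyocytes. After each cell was thinned to 1000 UMIs these shares became 5.45% and 4.52% against 1.65% and 1.89%, the same order as the levels. Red cells, used here as a class with few of these transcripts, held a Trp53 UMI in 0.383% and 0.805% of cells at median depths of 1514.5 and 1686 UMIs. Haemoglobin took 78.0% and 72.4% of their UMIs and lowers their CPM, and without it their Trp53 stood at 7.59 and 9.31 CPM.

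**Figure D1:**
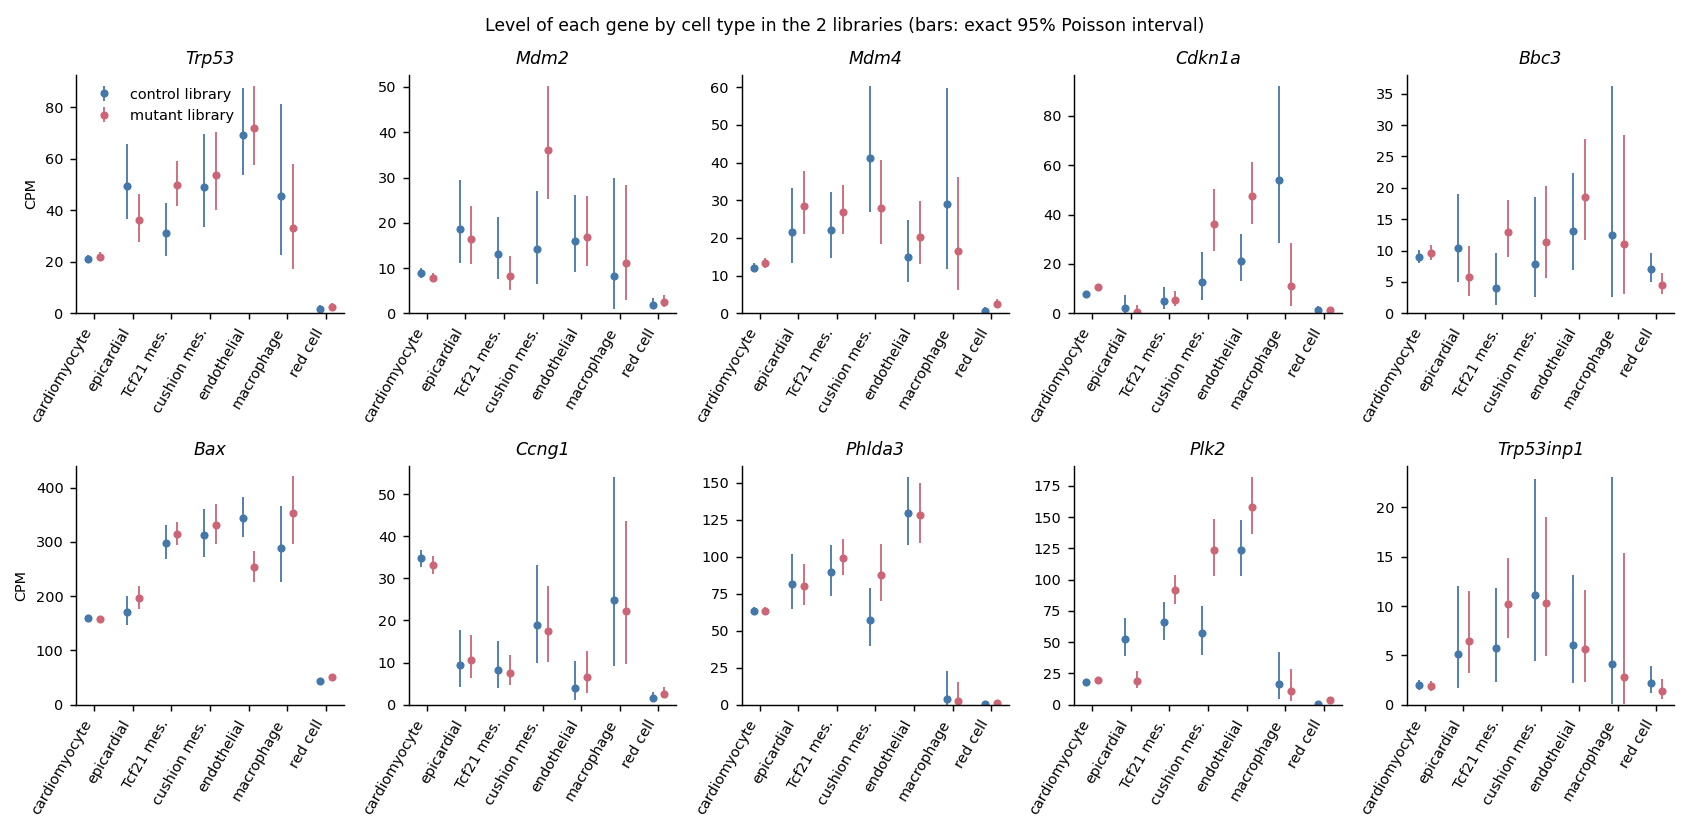
Level of each of the 10 genes in 7 cell types, in CPM summed over cells, in the control (blue) and mutant (red) library, with exact 95% Poisson intervals as bars. Over cells of all depths, Trp53 is highest in endothelial cells, Ccng1 in cardiomyocytes, and Phlda3 is near 0 in macrophages and red cells.

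The main inhibitor Mdm2 (chr10:117688875-117710758) lay between 7.88 and 18.6 CPM in every nucleated class of either library, except mutant cushion mesenchyme at 36.1. In that class 23 of its 35 UMIs came from 1 cell, described below. Mdm4 (chr1:132959484-133030561) was highest in control cushion mesenchyme, at 41.2 (26.9 to 60.3), and lowest among nucleated classes in cardiomyocytes, at 12.02 and 13.4. Epicardial cells held 21.7 and 28.6 CPM of Mdm4 and Tcf21 mesenchyme 22.2 and 27.0. Endothelial cells held 15.1 and 20.2 of Mdm4, and macrophages 29.0 and 16.6, with only 7 and 6 UMIs. Each neighbour in the Mdm4 order from cushion mesenchyme to cardiomyocytes overlapped the next in both libraries.

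Cdkn1a (chr17:29090976-29100727) encodes the cyclin-dependent kinase inhibitor p21 and Ccng1 (chr11:40748552-40755311) encodes cyclin G1, which acts on Mdm2 with a phosphatase. Cdkn1a was all but absent from epicardial cells, with 2 UMIs in 276 control cells and 1 UMI in 472 mutant cells, or 2.07 (0.2504 to 7.47) and 0.584 CPM. Free RNA could give up to 0.769 CPM of Cdkn1a in control epicardial cells, which lies inside that interval. Red cells held 1.49 and 1.21 CPM of Cdkn1a, or 6.74 and 4.38 without haemoglobin, with 87.5% of the UMIs in 2 cells of each library. Cardiomyocytes held 7.77 and 10.6 and Tcf21 mesenchyme 4.93 and 5.32 CPM of Cdkn1a. Endothelial cells held 21.1 and 47.6, cushion mesenchyme 12.7 and 36.1, and macrophages 53.8 (28.7 to 92.0) and 11.1 (3.02 to 28.4). The epicardial share of cells with a Cdkn1a UMI was 0.725% and 0.212% (0.361% and 0.0445% after thinning) at median depths of 2396 and 2697 UMIs, beside 0.164% and 0.142% in red cells. Ccng1 was highest in cardiomyocytes, at 34.7 (32.7 to 36.9) and 33.1 (31.0 to 35.3), followed by macrophages at 24.8 and 22.1 and cushion mesenchyme at 19.0 and 17.6. Epicardial cells, Tcf21 mesenchyme and endothelial cells held 4.02 to 10.5 CPM of Ccng1, with intervals below those of cardiomyocytes in both libraries. In the thinned data a Ccng1 UMI was found in 3.24% and 3.30% of cardiomyocytes and 0.375% and 0.342% of endothelial cells, against 32.1%, 34.4%, 2.33% and 2.76% at full depth. In barcodes of 1 to 100 UMIs of the control library, which hold free RNA and cell fragments, Ccng1 stood at 39.1 and Cdkn1a at 23.1 CPM.

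Bax (chr7:45461697-45466898), the pore-forming member of the Bcl2 family that opens mitochondria in cell death, and Bbc3 (chr7:16308393-16318205), the p53-induced protein Puma that releases Bax, are the death effectors. A Bax UMI was found in 79.9% and 80.6% of cardiomyocytes (15.5% and 14.7% after thinning). Its level was 160 and 157 CPM in cardiomyocytes and 172 and 196 in epicardial cells. It was 299 and 315 in Tcf21 mesenchyme, 314 and 332 in cushion mesenchyme, 344 and 253 in endothelial cells and 290 and 354 in macrophages. Thus the epicardial and cardiomyocyte levels of Bax lay below the other nucleated classes, with intervals that overlapped none of those 4 classes in either library. Red cells held 43.5 and 50.8, or 197 and 184 without haemoglobin. Bbc3 ran from 4.11 to 18.6 CPM over nucleated classes and stood at 7.06 and 4.54 in red cells, or 32.0 and 16.4 without haemoglobin, and all neighbours in the order of CPM had overlapping intervals.

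Phlda3 (chr1:135766119-135769136) encodes a p53-induced antagonist of Akt, Plk2 (chr13:110395046-110400844) a polo-like kinase, and Trp53inp1 (chr4:11156431-11174379) a stress-induced protein that acts with p53. Phlda3 summed to 130 and 128 CPM in endothelial cells, where 2 cells held 37.2% and 39.0% of the UMIs, and stood at 89.5 and 99.1 in Tcf21 mesenchyme, 81.7 and 80.6 in epicardial cells, 57.0 and 87.8 in cushion mesenchyme and 63.2 and 63.4 in cardiomyocytes. Macrophages held a single Phlda3 UMI in each library (4.14 and 2.77 CPM) and red cells 2 and 9 UMIs (0.371 and 1.36 CPM). The thinned share of cells with Phlda3 was 7.99% and 7.15% in endothelial cells, 7.83% and 9.30% in Tcf21 mesenchyme, 7.82% and 8.38% in epicardial cells and 0.480% and 0.171% in macrophages. The endothelial level was thus not the highest by share in the mutant library. Unthinned, the share was 24.4% and 24.0% in endothelial cells and 1.47% and 1.41% in macrophages. Plk2 was highest in endothelial cells, at 124 and 158, then cushion mesenchyme at 57.0 and 124 and Tcf21 mesenchyme at 65.7 and 91.5. Epicardial cells held 52.7 and 19.3 CPM of Plk2, cardiomyocytes 18.2 and 19.8, and macrophages 16.6 and 11.1. Neighbours in the Plk2 order overlapped in at least 1 library. Trp53inp1 did not exceed 11.1 CPM in any class and was lowest among nucleated classes in cardiomyocytes, at 1.97 and 1.85. If all Tnnt2 in the 5 other nucleated classes of the control library were free RNA, it would make up 1.39% to 3.33% of their UMIs. At the composition of the near-empty barcodes this gives at most 4.76 CPM of Bax and at most 2.18 of any other of the 10 genes.

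The 2 libraries were then compared within each cell type, to ask where p53 and its targets differ when Prmt1 is deleted in the Tbx18 lineage. A gene was called past 1.5-fold when it had at least 30 UMIs over both libraries and its mutant to control ratio of CPM lay above 1.5 or below the inverse. The share of all genes called in the same way is given beside each count, and it is the yardstick for the members. Over the 7 cell types 11 such calls were made among the members, and the share of all genes is given below for each cell type.

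**Figure D2:**
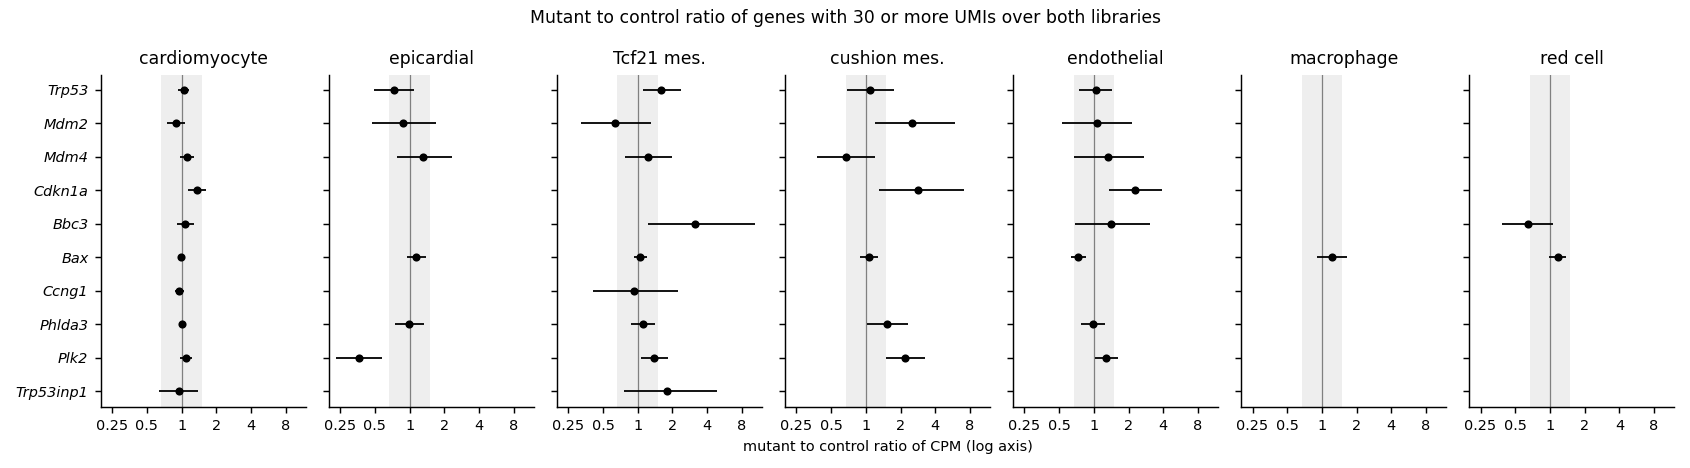
Mutant to control ratio of CPM on a log axis for each gene with at least 30 UMIs over both libraries, by cell type, with exact 95% intervals for counting error; the grey band marks 1.5-fold either way. Cardiomyocyte ratios all sit inside the band, Plk2 lies left of it in epicardial cells and right of it in cushion mesenchyme.

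In cardiomyocytes all 10 genes had enough UMIs and 0 were called, where 7.41% of 12032 genes were (4.01% higher and 3.39% lower in the mutant library). The ratios ran from 0.890 for Mdm2 to 1.36 for Cdkn1a (7.77 control to 10.6 mutant CPM, interval of the ratio 1.15 to 1.62). Without cells of 10 or more Cdkn1a UMIs, 1 in the control and 3 in the mutant library, Cdkn1a stood at 7.46 and 8.54 CPM. Its ratio was 2.63 (1.41 to 5.07) in cardiomyocytes under 8000 UMIs and 1.28 (1.07 to 1.53) in deeper ones. Bax, with 5057 and 4337 UMIs, gave a ratio of 0.982 (0.942 to 1.02), and Phlda3, with 1992 and 1745 UMIs, a ratio of 1.003 (0.940 to 1.07). By depth, the Bax ratio was 0.790 (0.692 to 0.900) in cardiomyocytes under 8000 UMIs and 1.01 (0.966 to 1.05) in deeper ones. The median log2 ratio of the 10 genes was 0.03, against 0.04 over all genes tested. Of 62 other genes of the p53 pathway lists with enough UMIs, 2 were higher in the mutant library and 0 lower: Gadd45a, a growth arrest target, at 1.27 and 2.58 CPM (ratio 2.03, 1.36 to 3.07), and Trp53i11 at 0.634 and 1.02 (1.60, 0.871 to 3.0004).

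In epicardial cells, which had the highest level of the driver gene Tbx18, 6 genes had enough UMIs and 1 was called, beside 16.4% of 6405 genes. Plk2 was lower in the mutant library, with 51 UMIs in 276 control cells and 33 in 472 mutant cells (52.7 and 19.3 CPM, ratio 0.365, 0.228 to 0.577); 10.6% of genes were lower and 5.87% higher by that rule. Markers of the response to dissociation, 11 immediate early and heat shock genes such as Fos and Hspa1a, summed to 2223 and 1089 CPM in the same cells, and all 11 were lower in the mutant library. Their part in the Plk2 difference was not tested. The remaining 5 ratios had intervals that include 1: Trp53 at 0.729 (0.492 to 1.09), Mdm2 at 0.879 (0.469 to 1.69), Phlda3 at 0.987 (0.743 to 1.32), Bax at 1.14 (0.946 to 1.39) and Mdm4 at 1.32 (0.776 to 2.31). These intervals leave out a 2-fold rise of Trp53, Mdm2, Phlda3 or Bax but not of Mdm4. Bbc3, Ccng1, Trp53inp1 and Cdkn1a had fewer than 30 UMIs, and their ratios had intervals of 0.211 to 1.51, 0.482 to 2.85, 0.398 to 4.56 and 0.00479 to 5.42. The intervals of the last 3 do not leave out a 2-fold rise. That of Bbc3 does, at a ratio of 0.565 from 10 UMIs in each library.

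Among the pathway lists in epicardial cells, 2 of 26 genes with enough UMIs were higher and 3 lower. Btg2, an antiproliferative p53 target that is also an immediate early gene, stood at 65.1 control and 32.1 mutant CPM (ratio 0.493, 0.337 to 0.719). Rchy1, a ubiquitin ligase for p53, stood at 33.1 and 52.5 (1.59, 1.05 to 2.46), and Aen, a p53-induced nuclease, at 14.5 and 25.1 (1.73, 0.931 to 3.43). The acetyltransferase Ep300 stood at 21.7 and 14.0 (0.645, 0.344 to 1.22), and the ubiquitin ligase gene Cop1 was also below the inverse of 1.5-fold. The median log2 ratio over these 26 genes was -0.20, and that of the 6 members with enough UMIs was -0.10, against -0.05 over all genes tested.

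In Tcf21 mesenchyme, 9 genes had enough UMIs and 4 were called, beside 14.8% of 7254 genes; 3 were higher in the mutant library, where 10.1% of genes were, and 1 lower, where 4.67% were. Trp53 had 38 control and 131 mutant UMIs, or 31.2 and 49.8 CPM (ratio 1.59, 1.10 to 2.35), and the share of cells with a UMI was 6.20% and 10.3% (2.10% and 3.502% after thinning). Bbc3 had 5 and 34 UMIs, or 4.11 and 12.9 CPM (3.14, 1.22 to 10.3), spread over 5 and 32 cells with at most 2 UMIs in any of them. Trp53inp1, with 7 and 27 UMIs (5.75 and 10.3 CPM), gave 1.78 (0.758 to 4.85), and Mdm2, with 16 and 22 UMIs (13.1 and 8.36 CPM), gave 0.636 (0.319 to 1.30), and both intervals include 1. Plk2 stood at 65.7 and 91.5 (1.39, 1.08 to 1.82), and Bax, Phlda3, Mdm4 and Ccng1 had ratios between 0.925 and 1.22 with intervals that include 1. The dissociation markers summed to 2420 and 2426 CPM, with 7 of 11 higher in the mutant library. Within the sum, Hspa1a stood at 2.46 and 53.2 CPM, Hspa1b at 0.821 and 28.5, Atf3 at 85.4 and 156, Egr1 at 232 and 161, and Junb at 109 and 71.8, and the part of these genes was not tested. None of the 12 other p53 targets with enough UMIs passed 1.5-fold, and their median log2 ratio was -0.09 against 0.04 over all genes tested. The genes of other pathway lists past 1.5-fold were Ep300 (6.57 and 14.1 CPM), Cop1 (18.9 and 30.8), Sirt1 (6.57 and 11.4) and the death gene Bcl2l11 (5.75 and 12.2), all 4 higher in the mutant library and all but Cop1 with intervals that include 1.

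In cushion mesenchyme, 7 genes had enough UMIs and 4 were called, all higher in the mutant library, beside 16.9% of 4794 genes called and 7.45% called higher and 9.45% lower. Cdkn1a had 8 control and 35 mutant UMIs (12.7 and 36.1 CPM, ratio 2.85, 1.30 to 7.12) and Mdm2 9 and 35 (14.3 and 36.1 CPM, 2.54, 1.19 to 5.998). A single mutant cell held 30 of the Cdkn1a and 23 of the Mdm2 UMIs, and without it the levels were 5.25 for Cdkn1a and 12.6 for Mdm2, both below the control. Phlda3 stood at 57.0 and 87.8 CPM (1.54, 1.03 to 2.34) and at 72.4 in the mutant library without that cell, a ratio of 1.27. Plk2 stood at 57.0 and 124 (2.17, 1.49 to 3.25) and its ratio without that cell was 2.12, with 36 and 115 UMIs. Dissociation markers stood at 2487 and 3285 CPM in this class, 9 of 11 of them higher in the mutant library, and their part in the Plk2 difference was not tested. Of 25 pathway genes with enough UMIs, Dcxr (14.3 and 25.8) and Ercc5 (14.3 and 22.7), both targets of p53, were higher and Sulf2 (34.8 and 16.5) and the corepressor Trim28 (84.0 and 53.7) lower. The same mutant cell held 11 of the 25 Dcxr and 6 of the 22 Ercc5 UMIs.

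In endothelial cells, 8 genes had enough UMIs and 1 was called, beside 17.4% of 5630 genes called and 12.9% called higher and 4.48% lower. Cdkn1a had 21 and 59 UMIs (21.1 and 47.6 CPM, ratio 2.26, 1.35 to 3.91), and 2 of 217 mutant cells held 28 and 21 of them. Without cells of 10 or more Cdkn1a UMIs, of which the control library had 1, the levels were 9.79 and 8.39. The share of endothelial cells with a Cdkn1a UMI was 5.81% and 3.23% (0.956% and 0.933% after thinning). Bax was lower but not past 1.5-fold, at 344 and 253 CPM (0.736, 0.629 to 0.860), and its ratio was 0.742 among cells under 8000 UMIs and 0.729 among deeper ones. Plk2 stood at 124 and 158 (1.28, 1.02 to 1.62) and Trp53 at a ratio of 1.04 (0.748 to 1.44). By depth, the Plk2 ratio was 0.871 (0.583 to 1.31) among cells under 8000 UMIs. It was 1.62 (1.22 to 2.18) among the deeper cells, 21 control and 32 mutant. Of 26 pathway genes with enough UMIs, Bcl2l11 (10.0 and 21.8) and the p53 deubiquitinase Usp7 (23.1 and 34.7) were higher and Btg2 (59.2 and 38.7) was lower, and the interval for Usp7 includes 1.

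Macrophages had enough UMIs for Bax alone, which was not called (ratio 1.22, 0.907 to 1.66), beside 25.3% of 2272 genes (14.4% higher and 10.9% lower). Cdkn1a had 13 UMIs in 11 of 68 control cells and 4 UMIs in 3 of 71 mutant cells, with thinned shares of 7.02% and 1.002%. Btg2 had 46 and 11 UMIs (190 and 30.4 CPM, ratio 0.160, 0.0747 to 0.313). Higher in mutant macrophages were Prmt1 (174 and 299) and the Cdk inhibitor gene Cdkn2d (20.7 and 69.2). The dissociation markers stood at 4604 and 2677 CPM in these cells, with 1 of 11 higher in the mutant library, and their part was not tested. In red cells 2 genes had enough UMIs and 1 was called, Bbc3 at 7.06 and 4.54 (0.643, 0.385 to 1.07), beside 43.9% of 3684 genes called, 42.2% higher and 1.71% lower. Of 21 pathway genes with enough UMIs there, 12 were higher and 0 lower, and 4 were higher with haemoglobin and mitochondrial UMIs left out of the denominator. The median log2 ratio of all genes in red cells was 0.50.

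Beyond class averages, 2 cells of the mutant library held more Cdkn1a, Mdm2 and Ccng1 per UMI than any other cell of at least 8000 UMIs. They were noticed through Cdkn1a and then ranked by the sum of these genes, so their excess in these genes follows from the choice. They are described here without a test. One, with 15507 UMIs, fell in the cushion gate, and the other, with 15070 UMIs, passed no gate. In the first and the second, Cdkn1a reached 30 and 21 UMIs, Mdm2 23 and 17, Ccng1 11 and 13, Phlda3 16 and 14, Bax 18 and 14, and Bbc3 3 and 8. Trp53 and Mdm4 had no UMI in either cell, which allows up to 98.1 CPM over the 2 cells, and Trp53 stood at 127 in the 40 other deep mesenchymal cells of the mutant library. The sum of Cdkn1a, Mdm2 and Ccng1 was 41.3 and 33.8 per 10000 UMIs, while the highest of the other 2813 cells of at least 8000 UMIs reached 11.997 and the highest control cell of that depth 5.90.

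The targets that were not used to notice these cells were high in them as well. The 35 other listed p53 targets summed to 82.5 and 71.0 per 10000 UMIs, beside a median of 13.7 and a highest value of 39.3 in the other 2813 cells. Without Rps27l, a ribosomal protein gene among those targets, the sums were 61.3 and 50.4 beside a highest value of 22.3. The cells showed 24 and 21 of the 35 targets, against 2 to 14 in the 766 other cells of 12001 to 18978 UMIs, and 18 targets appeared in both. Btg2 had 11 and 9 UMIs, the ubiquitin ligase gene Rchy1 12 and 8, the reductase gene Dcxr 11 and 4, the repair gene Ercc5 6 and 8, the apoptosome gene Apaf1 6 and 7, the phosphatase gene Ppm1d 4 and 6, and the death gene Pidd1 5 and 3. Against the 40 other deep mesenchymal cells, Phlda3 was 10.7 times as abundant (6.57 to 17.0) and Bax 4.78 times (3.14 to 7.09), while Plk2 was level at 1.02 times (0.403 to 2.17). The 27 of the 35 targets with a UMI in the 2 cells were all above their level in those cells, and 7 without one were below. A single UMI over the 2 cells already gives 32.7 CPM, so this count restates detection and does not show that each of the 27 was raised. Trp53cor1 had no UMI in either set. In the 2 cells 8 of the 35 had no UMI.

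Other features of these 2 cells were alike. Neither held a UMI of the 10 cycling markers, a limit of 98.1 CPM beside 1653 in the other 40 cells. Of the 2813 other deep cells, 277 also held none. Of the 62 other deep mesenchymal cells of both libraries, 19 held none, the median was 1 UMI and the highest value 166. Both carried Postn (19 and 21 UMIs), Tbx20 (14 and 14) and Twist1 (4 and 3), and no Tcf21, Tnnt2, Cdh5 or Pecam1. The first cell failed the alternative rule of exactly 0 keratin-gene and Tcf21 UMIs. As it had no Tcf21, it held at least 1 keratin or uroplakin UMI. The second passed no gate, and its keratin and uroplakin UMIs are not given here. The other 40 cells had to stay under 1 such UMI per 10000, so these genes do not settle a cell type for the 2 cells. Beside the other 40 cells, from both mesenchymal gates, Postn was 1.84 times as abundant (1.30 to 2.55), Tbx20 3.08 times (1.99 to 4.61) and Twist1 0.334 times (0.134 to 0.695). Prmt1 had 9 and 12 UMIs, 1.37 times its level in the other 40 cells (0.834 to 2.13). Mitochondrial genes took 2.80% and 2.85% of their UMIs. Fos had 42 and 47 UMIs, 2.93 times its level in the other 40 cells (2.32 to 3.67), and its part was not tested. The libraries held 7 other cells with at least 10 Cdkn1a UMIs. In the mutant library 2 endothelial cells carried 28 and 21, with 1 and 2 UMIs of Mdm2, 0 and 1 of Ccng1, and 9 and 6 of the 35 other targets detected. There 3 cardiomyocytes of 44824, 53625 and 35520 UMIs carried 26, 22 and 10, with 19, 23 and 4 UMIs of Ccng1, 133, 184 and 6 of cycling markers, and 18, 22 and 16 of the other targets detected. Those targets summed to 27.9, 28.2 and 19.99 per 10000 UMIs in them, below the 2 cells above, at a greater depth. A control cardiomyocyte and a control endothelial cell carried 10 and 12 Cdkn1a UMIs, with 12 and 13 of the other targets detected.

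**Figure D3:**
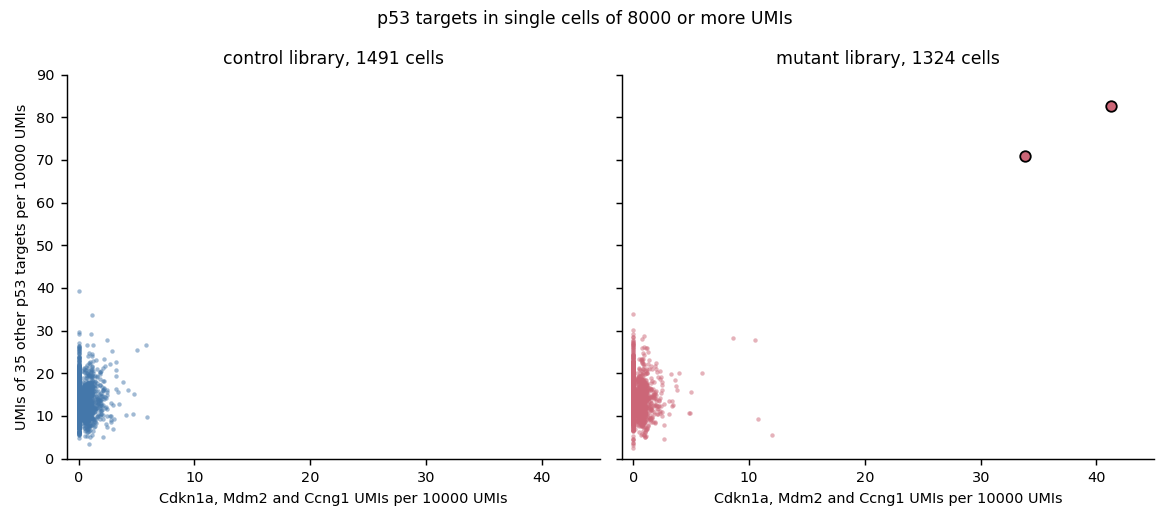
Each point is 1 cell of at least 8000 UMIs, with the summed UMIs of Cdkn1a, Mdm2 and Ccng1 per 10000 UMIs on the horizontal axis and those of 35 other p53 targets on the vertical axis, in the control (left) and mutant (right) library. The 2 outlined mutant cells, picked by the horizontal sum, lie at 41.3 and 33.8 by 82.5 and 71.0, away from the other cells of both libraries.

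Trp53 moved with the depth of a cell. Cells of at least 8000 UMIs held more Trp53 CPM than shallower cells of the same class in all 12 groups formed by 6 nucleated classes and 2 libraries, and the interval of the ratio excluded 1 in 9 of them. Outside cardiomyocytes the deep cells were few. The control and mutant libraries had 22 and 25 epicardial, 15 and 30 Tcf21 mesenchymal, 7 and 11 cushion and 21 and 32 endothelial cells, and 5 and 8 macrophages. In Tcf21 mesenchyme it stood at 90.4 in deep and 18.9 in shallow control cells (ratio 4.79, 2.40 to 9.56) and at 120 and 35.6 in mutant cells (3.38, 2.34 to 4.86). Epicardial cells gave 94.3 and 27.7 in the control and 70.2 and 25.9 in the mutant library. Many genes were higher in deep cells: 37.5% and 48.9% of all genes in Tcf21 mesenchyme, and 39.1% and 44.8% in epicardial cells, were past 1.5-fold higher there. Fewer had a ratio above that of Trp53. These were 2.80% and 12.1% of genes in control and mutant Tcf21 mesenchyme, 4.43% and 16.0% in epicardial cells, and 12.7% and 31.1% in cardiomyocytes. Bax had a lower level in deep cells in 9 of 12 groups and an interval that excluded 1 in 6, for example 171 and 326 in control Tcf21 mesenchyme. Many genes were lower in deep cells too: past 1.5-fold these were 6.02% of genes in control and 7.2% in mutant cardiomyocytes, 18.4% and 19.2% in epicardial cells, 25.2% and 18.7% in Tcf21 mesenchyme, 38.0% and 27.4% in cushion mesenchyme, and 10.7% and 12.1% in endothelial cells. Bax passed that fold in control Tcf21 mesenchyme and mutant epicardial cells among these groups. The difference in Trp53 between libraries in Tcf21 mesenchyme was 18.9 against 35.6 among shallow cells (1.89, 1.13 to 3.30) and 90.4 against 120 among deep cells (1.33, 0.776 to 2.38), and the contrast between these ratios was not tested. Plk2 was higher in deep cells, with an interval that excluded 1, in 6 of 12 groups, for example 279 against 95.4 in mutant cushion mesenchyme, where 37.7% of genes were past 1.5-fold higher in deep cells. Cycling markers were higher in deep cells of Tcf21 mesenchyme, 2664 against 1560 CPM in the control and 1883 against 1499 in the mutant library, and lower in deep cells of cushion mesenchyme, 762 against 1412 and 810 against 1114. Their part was not tested.

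**Figure D4:**
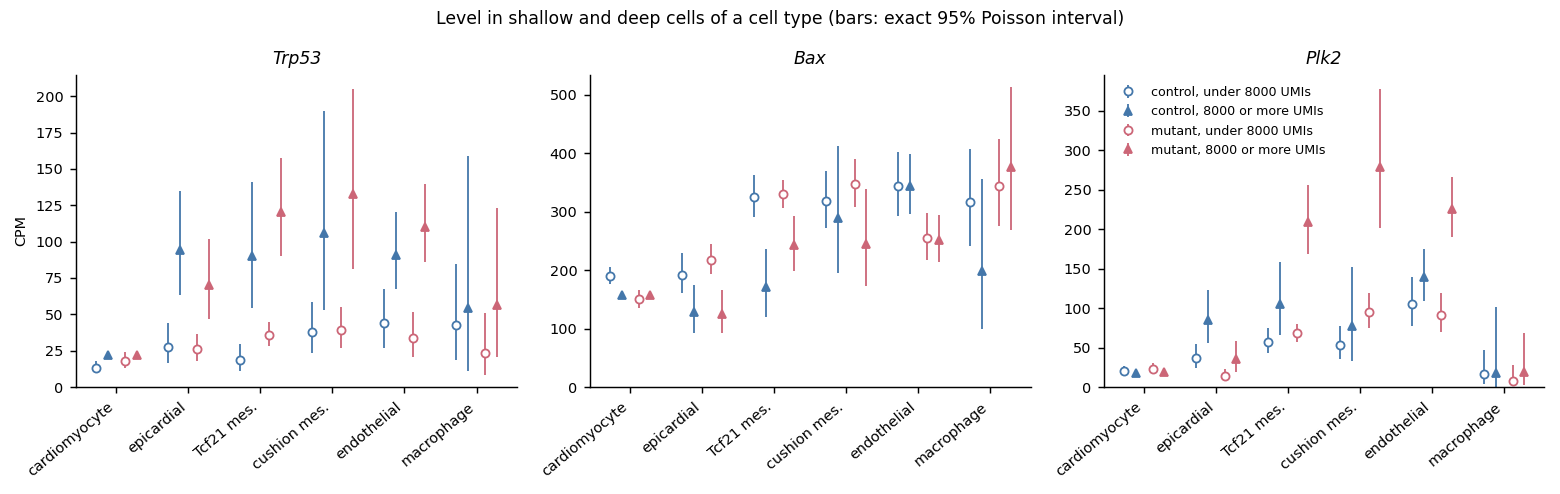
CPM of Trp53, Bax and Plk2 in cells under 8000 UMIs (open circles) and of 8000 or more (filled triangles), by cell type, in the control (blue) and mutant (red) library, with exact 95% Poisson intervals. Every triangle of Trp53 lies above its circle, and 9 of 12 triangles of Bax lie below theirs.

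Plk2 is known to respond to serum and stress as an early gene, and it was set beside the dissociation markers within each class. In control epicardial cells it stood at 107 CPM (71.9 to 154) in the 62 cells with at least 30 dissociation UMIs per 10000, and at 29.8 and 34.5 in the 112 and 102 cells with 10 to 30 and with fewer than 10. Mutant epicardial cells held 14.1, 15.1 and 22.5 in the same strata, the first from 1 UMI in 16 cells. Mutant cushion cells held 186 (147 to 232) in the highest stratum and 77.7 and 74.7 in the others, while control cushion cells held 57.6, 53.2 and 62.0 with overlapping intervals. Thus the mutant level of Plk2 exceeded the control in the highest stratum of cushion cells beyond counting error, and lay below it in the highest stratum of epicardial cells by point value with intervals of 71.9 to 154 and 0.356 to 78.4, which overlap. In endothelial cells Plk2 stood at 304 (223 to 406) in the 15 control cells of the highest stratum against 134 (86.6 to 198) in the mutant library. In the middle stratum it stood at 89.2 (63.1 to 122) against 197 (164 to 234), so the 2 libraries had opposite orders in these strata, and in the lowest at 93.1 against 108. Over whole classes, Plk2 and the marker sum were both lower in mutant epicardial cells and both higher in mutant cushion and endothelial cells. Within depth the endothelial cells differed from this. Under 8000 UMIs their Plk2 was 105 control and 91.5 mutant CPM, beside marker sums of 1121 and 1716. In deeper cells it was 139 and 225, beside marker sums of 2023 and 2039. In Tcf21 mesenchyme the sum had a ratio of 1.003 and Plk2 one of 1.39, and in cardiomyocytes the sum was 702 and 579 and Plk2 18.2 and 19.8. Macrophages had 4 Plk2 UMIs in each library (ratio 0.669, 0.125 to 3.59).

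**Figure D5:**
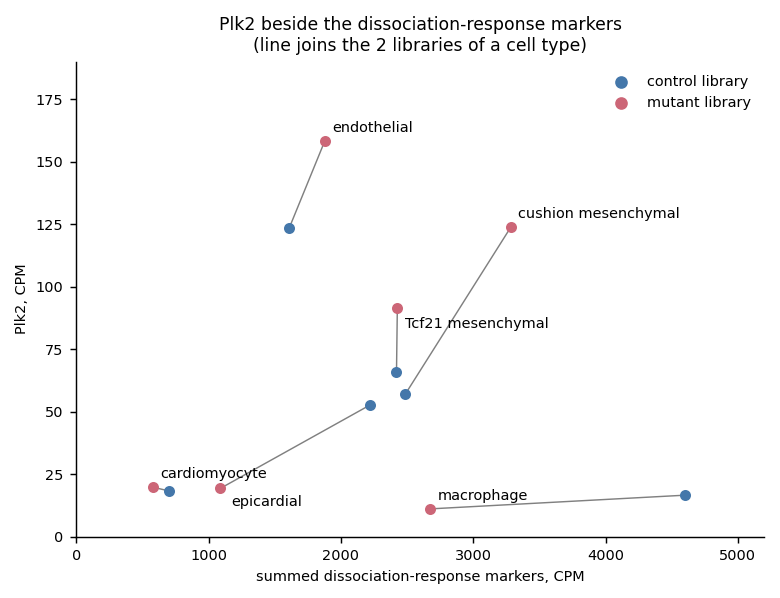
Plk2 level against the summed level of 11 dissociation-response markers, both in CPM, for 6 nucleated cell types; a line joins the control (blue) and mutant (red) library of a type. Epicardial cells move down and left from 2223 to 1089 on the marker axis, cushion cells up and right from 2487 to 3285.

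Cells were also divided by 10 mitotic marker genes into cycling and not cycling. Trp53 was higher in cycling endothelial cells, with 81.0 against 25.1 CPM in the control and 74.9 against 26.1 in the mutant library, and in cycling cardiomyocytes, with 22.5 against 18.7 and 23.4 against 17.9. Only the intervals of mutant endothelial cells did not overlap. Cdkn1a had the reverse order in cardiomyocytes, 7.20 in cycling against 13.3 in not cycling control cells, and 10.2 against 12.6 in the mutant library, where the intervals overlap. Plk2 did so too, at 17.6 against 23.6 and 17.0 against 29.6. Bax was lower in cycling cells of the mesenchymal, epicardial and cardiomyocyte classes in both libraries, for instance 267 against 339 and 285 against 374 in cushion mesenchyme, where the intervals overlap. Cycling cells were deeper, with a median of 14234 against 6819 UMIs in control cardiomyocytes, and the part of depth was not tested.

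Across the 14 groups of 7 classes and 2 libraries, 3635 genes were compared with 4 members by the correlation of log2 levels, as a description. The groups share libraries and differ in depth, and 2 of them are red cells. Nearest to Cdkn1a were Sh3glb1, Msn and Tmbim6 (r of 0.82, 0.79 and 0.78), nearest to Trp53 Nudt14, Dync1h1 and Bnip2 (0.98 for each), nearest to Bax Tmed7, Cfl1 and Lsm12 (0.98 for each), and nearest to Plk2 Hbegf, Sod1 and Supt5 (0.96, 0.95 and 0.94).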

How the data were processed

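The 2 libraries of mouse hearts at E12.5, 1 per genotype, were used. Per the file headers, the deposited values are raw UMI counts from Cell Ranger 3.0.2, and the submitters' processing notes also name Seurat. Neither the build nor the strand setting of the counting is given in the sources used here. The control matrix lists every barcode (49323576 UMIs, 542175 barcodes with a UMI) and the mutant matrix 7181 barcodes of at least 500 UMIs (48527471 UMIs).

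The genes, lists and gates were chosen with earlier results of these data known, and gate limits were set with the data in view. Cells with at least 1000 UMIs, 500 genes and at most 20% mitochondrial UMIs were kept (red cells without the gene minimum, at 50% haemoglobin or more; others under 10%). Gates, per 10000 UMIs without haemoglobin, were 150 for cardiomyocyte genes (without Myl7 and Tnni1; 50 to 150 was left out), 5 for keratin and uroplakin genes, 2 for Tcf21, 10 for cushion genes, 10 for endothelial (without Egfl7 and Ramp2) and 20 for macrophage genes; keratin genes, and for cushion cells Tcf21, had to stay under 1. Tcf21 mesenchyme is named from that gene. Doublets were treated by leaving out cells in more than 1 gate (88 control, 84 mutant); Scrublet (scanpy 1.11.5) marked 0 of 4100 and 2 of 4640 cells on its own threshold and so was used only as an alternative. Cycling cells had at least 5 mitotic UMIs per 10000 and at least 2, and not cycling cells under 1 per 10000.

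Counts were summed per class (Python 3.11.15, scipy 1.17.1). Intervals are exact Poisson for levels, exact binomial (Clopper-Pearson) for shares and exact conditional binomial for ratios. The ratio interval was checked on simulated counts. Correlations used log2 of UMIs per 1000000 (CPM) plus 10. Sequences are from RefSeq windows of GRCm38.p6 and gene positions from GENCODE M21, whose gene IDs match the files for all 10 genes. Named genes were the 10 members, values for up to 4 pathway genes past 1.5-fold per class (highest and lowest ratios), and the 3 genes most alike to each of 4 members; the 2 cells and their genes were chosen after their values were seen.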

Additional observations from a re-analysis of the deposited data

Results flagged for a closer look

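Some ratios of 1 gene pointed in opposite directions in different cell types, and the difference between cell types was not tested, since each genotype has 1 library. The mutant to control ratio of Plk2 was 0.365 in epicardial cells and 2.17 in cushion mesenchyme. That of Mdm2 was 0.636 in Tcf21 mesenchyme and 2.54 in cushion mesenchyme, where 23 of 35 mutant UMIs lie in 1 cell. That of Bbc3 was 3.14 in Tcf21 mesenchyme and 0.643 in red cells. Outside the gated cells, 1 mutant cell that passed no gate held 33.8 UMIs of Cdkn1a, Mdm2 and Ccng1 per 10000, above 5.90 in the highest control cell of at least 8000 UMIs.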

How the results depend on the processing

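No paired analysis was possible because each genotype has 1 library. The 11 calls among the members became 5 without the deepest 5% of cells, and, in alternatives chosen after seeing the data, 4 in cells under 8000 UMIs (where fewer genes reach 30 UMIs) and 7 without cells of 10 or more Cdkn1a UMIs. They were 8 to 12 elsewhere. The 33 calls of the pathway lists became 17 in cells under 8000 UMIs and were 25 to 38 elsewhere. The share of all genes called was not computed under these alternatives. The counts therefore do not separate a change in the listed genes from a change in all genes. In cushion mesenchyme the Cdkn1a ratio of 2.85 reversed to 0.853 with gates doubled, 0.894 with equal weight per cell, 0.498 without the deepest 5%, 0.538 in cells under 8000 UMIs, 0.414 without high-Cdkn1a cells and 0.406 with keratin genes and Tcf21 at exactly 0, a rule that leaves out the 1 cell with 30 of the 35 UMIs, and it was 10.3 in deeper cells. The Mdm2 ratio there, 2.54, became 1.14 with gates doubled, 1.14 with equal weight and 10.3 in deeper cells, and reversed to 0.415, 0.461, 0.883 and 0.649 under the last 4 of those settings that reversed Cdkn1a. The endothelial Cdkn1a ratio of 2.26 reversed to 0.275 with gates doubled, 0.920 with gates halved, 0.367 in cells under 8000 UMIs and 0.857 without high-Cdkn1a cells, and was 1.34 with equal weight. The Plk2 ratio in cushion mesenchyme rose to 3.61 in deeper cells, and the Mdm2 ratio in Tcf21 mesenchyme reversed to 1.27 in them. These deeper cells numbered only 7 control and 11 mutant in cushion mesenchyme and 15 and 30 in Tcf21 mesenchyme. Apart from the removal of named cells the cause was not tested. The ratios of Plk2 in epicardial cells (0.353 to 0.425) and of Trp53 (1.33 to 1.89) and Bbc3 (1.91 to 4.24) in Tcf21 mesenchyme kept their direction under every alternative run. Of 1680 levels under alternatives 228 left their counting interval. In red cells the pathway count of 12 became 4 with haemoglobin and mitochondrial UMIs left out of the denominator. Depth limits Bbc3, Cdkn1a, Ccng1 and Trp53inp1 in epicardial cells, where each had fewer than 30 UMIs, and 9 of 10 genes had fewer than 30 UMIs in macrophages.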
